A study of Mus musculus with 9 samples.

Results

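The AP-1 family was described here by its 7 JUN and FOS genes, Jun, Junb, Jund, Fos, Fosb, Fosl1 and Fosl2. They were found as the rows of the deposited raw count table whose Ensembl identifier carries 1 of these symbols in the GENCODE annotation of GRCm38. All 7 were found among the 20189 genes of the table, and all 7 had enough counts to be tested among 20143 genes. The samples were E14 cells, a line of mouse embryonic stem (ES) cells of wild-type genotype, kept in medium with leukemia inhibitory factor (LIF) and β-mercaptoethanol. In 3 libraries, titled Cystein-starved, the cells had been deprived of cysteine, and in 3 libraries, titled Threonin-starved, of threonine. Another 3 libraries, titled Wt_Unstarved, came from unstarved cells. Starvation lasted 3 h. The treatment text of these samples names the media without arginine or leucine only. The methods describe a Cys-free DMEM for the cell death assays, so which media the RNA samples without Cys or Thr had is not stated for them. The medium of the unstarved RNA samples is not stated in the methods either. All groups shared 1 line, 1 genotype and 1 time, and no source says that the replicates were separate cultures, so p-values measure the spread between these libraries, which may be technical.

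AP-1 is a transcription factor made of 2 proteins of the bZIP class, which pair through a leucine zipper and bind DNA through the basic region beside it. JUN proteins pair with each other or with FOS proteins, whereas FOS proteins need a JUN or another bZIP partner. Several of the genes, such as Fos, are known as immediate early genes. The mRNAs of such genes rise within minutes of growth factors or stress, through MAP kinases and transcription factors already present in the cell. These mRNAs are short-lived, owing to AU-rich elements, and the family is known for roles in growth, death and stress responses. The question addressed by the comparisons was which of these genes respond to the loss of Cys, to the loss of Thr, and differently to the 2 losses.

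Jun (ENSMUSG00000052684, chr4:95049034-95052222), Junb (ENSMUSG00000052837, chr8:84974484-84978718) and Jund (ENSMUSG00000071076, chr8:70698949-70700616) each have 1 exon in GRCm38, as do 23.6% of the genes in the table. Fos (ENSMUSG00000021250, chr12:85473890-85477273), Fosb (ENSMUSG00000003545, chr7:19302696-19310051), Fosl1 (ENSMUSG00000024912, chr19:5447547-5455946) and Fosl2 (ENSMUSG00000029135, chr5:32135801-32157842) have 4 exons in their longest transcript. The JUN transcripts were rich in G and C, at 55.5% for Jun, 62.6% for Junb and 67.1% for Jund, beside a median of 49.7% over all genes. The FOS transcripts were above this median too, at 51.9% for Fos, 53.1% for Fosl2, 56% for Fosb and 58.5% for Fosl1. RefSeq promoters were matched for 6 of the 7 genes, all but Fosl1. The windows of Jun, Junb and Fos are printed because these 3 genes rose most after Thr starvation. Each holds the 250 bases before the RefSeq transcription start in GRCm38.p6, 5′ to 3′ on the gene's strand, with motif matches in capitals.
Jun chr4:95052223-95052472 (minus strand): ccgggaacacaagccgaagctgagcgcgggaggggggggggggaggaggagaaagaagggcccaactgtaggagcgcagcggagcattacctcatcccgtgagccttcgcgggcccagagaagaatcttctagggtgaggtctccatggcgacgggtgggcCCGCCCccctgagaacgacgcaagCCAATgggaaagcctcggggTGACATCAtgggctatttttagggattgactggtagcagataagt
Junb chr8:84978749-84978998 (minus strand): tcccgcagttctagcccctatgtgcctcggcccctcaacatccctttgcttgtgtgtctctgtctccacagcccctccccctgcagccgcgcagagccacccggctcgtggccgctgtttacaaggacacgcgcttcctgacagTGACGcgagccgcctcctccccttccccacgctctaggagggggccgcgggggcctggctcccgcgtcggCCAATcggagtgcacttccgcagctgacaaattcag
Fos chr12:85473640-85473889 (plus strand): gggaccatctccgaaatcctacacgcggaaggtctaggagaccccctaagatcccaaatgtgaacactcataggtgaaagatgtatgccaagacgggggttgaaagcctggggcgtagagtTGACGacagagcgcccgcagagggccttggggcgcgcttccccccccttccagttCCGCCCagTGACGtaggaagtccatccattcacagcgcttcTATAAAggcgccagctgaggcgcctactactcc

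In the Jun window the capitals mark a GC box (GGGCGG, here on the opposite strand), a CCAAT box and TGACATCA, a match to TGACNTCA, the form of the cAMP response element (CRE) at which JUN with ATF2 is known to bind the Jun promoter. This match lies 45 to 38 bases before the start. In the Junb window they mark TGACG, the first letters of a CRE, and a CCAAT box, 36 to 32 bases before the start. The Fos window holds TGACG at 129 to 125 and at 66 to 62 bases before the start, a GC box on the opposite strand, and a TATAAA box at 33 to 28 bases. All motifs were searched on both strands, and TGACG can overlap TGACNTCA where N is G. TGACNTCA was found in 1 of the 6 windows and in 7.49% of 32851 promoters, TGACG in 3 windows and 17.8% of promoters, GGGCGG in 4 and 32.7%, CCAAT in 2 and 33.8%, and TATAAA in 1 and 12.4%. No match was found in the 6 windows to TGACTCA, the consensus AP-1 site (4.46% of promoters), to the CArG box bound by SRF (1.47%), to TGATGNAA, the amino acid response element (3.45%), or to TTCNNNGAA, the STAT site (7.02%). The RefSeq start of Jund lies 1210 bases before its gene start in GENCODE, and for Fosl2 the GENCODE start lies upstream of the RefSeq start, at position -671 from it, so these windows may not be the promoters in use. These are matches of letters within 250 bases and not measured binding. Sites further upstream were not searched, so no match here does not mean that a gene lacks such a site.

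Library totals ranged from 48763102 to 74962733 counts, the highest in Thr-starved library 3. Counts from 1 to 20 were even in 67.8% of cases, so a count cannot be taken as 1 independent molecule. Levels below are in counts-per-million (CPM) units, scaled between libraries by TMM. Of the ES cell markers, all 10 were above 1 CPM, with summed levels of 4290 to 4343 CPM in unstarved, 4101 to 4140 CPM in Cys-starved and 4334 to 4423 CPM in Thr-starved libraries. The sums hide changes of single ES cell markers. By edgeR, 5 were called higher and 5 lower after Thr starvation, where 63% of all genes were called. After Cys starvation 3 were called higher and 7 lower, where 36.3% of all genes were called. Markers of other cell types summed to far less. Fibroblast markers, as of feeder cells (4 of 7 under 1 CPM or not tested), reached 13.3 to 13.6, 12.0 to 14.9 and 9.48 to 10.6 CPM in the same order of groups, and primitive endoderm markers (4 of 6 under 1 CPM) 6.05 to 6.93, 9.06 to 10.1 and 6.58 to 6.94 CPM. Mesoderm markers summed to 7.23 to 8.32, 6.86 to 7.65 and 4.10 to 4.68 CPM and neural markers to 15.5 to 16.5, 20.97 to 21.7 and 22.2 to 25.8 CPM, and the part of these markers in the results was not tested. In bulk RNA, fewer cells that carry an mRNA and less of it in each cell cannot be told apart.

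After Thr starvation, the 3 JUN genes and Fos rose, Fosl2 fell slightly, and Fosb and Fosl1 did not pass the test. Jun rose most, by 7.49-fold, followed by Fos with 2.18-fold, Junb with 1.94-fold and Jund with 1.56-fold. That makes 5 of 7 members called at an adjusted p of 0.05 or less, against a background of 63% of all 20143 genes. By direction, 4 members rose, beside 31.1% of all genes, and 1 fell, beside 31.9%. The libraries of the 2 groups did not overlap for 6 members (66.5% of all genes), higher for 4 (32.6%) and lower for 2 (33.9%). The median log2 fold change of the 7 members was 0.65, beside -0.02 over all genes tested.

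After Cys starvation the changes were smaller and partly of the other sign. Jun rose 1.89-fold, Fosl2 1.41-fold and Jund 1.13-fold, Junb fell to 0.782 of its unstarved level, and Fos, Fosb and Fosl1 did not pass the test. The 4 members called stand beside 36.3% of all genes, the 3 that rose beside 17.5% and the 1 that fell beside 18.8%. The libraries did not overlap for 5 members (46.4% of all genes), higher for 4 (23%) and lower for 1 (23.5%). The median of the 7 members was 0.18 on the log2 scale, beside 0.01 over all genes. When the 2 starved groups were tested against each other, 6 of 7 members differed, beside 62% of all genes, with Jun, Junb, Jund and Fos higher (4 members, beside 30.4% of all genes) and Fosb and Fosl2 lower (2 members, beside 31.6%) in Thr-starved cells. The same 6 members had libraries that did not overlap (65.8% of all genes, 32.1% higher and 33.6% lower), and the median of the 7 members was 0.47, beside -0.02 over all genes.

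**Figure D1:**
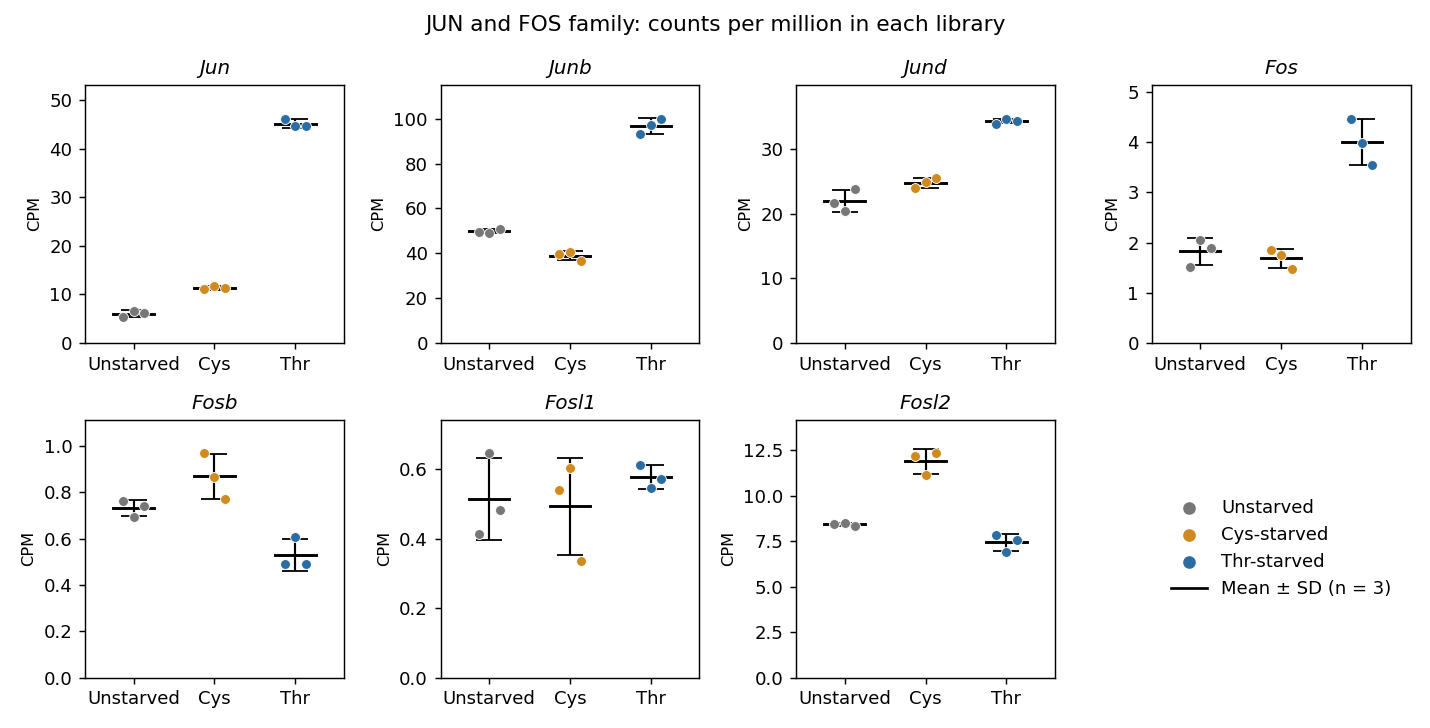
Counts-per-million values (CPM, vertical axes from 0, 1 panel per gene) of the 7 JUN and FOS genes in 3 unstarved, 3 Cys-starved and 3 Thr-starved libraries. Points are libraries and lines are mean ± SD; the Thr-starved points of Jun, Junb, Jund and Fos lie above all other points, and those of Fosb and Fosl2 lie below.

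Jun, the founding member and the strongest activator among the JUN proteins, gave 5.31, 6.62 and 6.14 CPM in the unstarved libraries, 11.01, 11.8 and 11.3 CPM in the Cys-starved ones and 46.2, 44.6 and 44.6 CPM in the Thr-starved ones. No 2 groups overlapped, and the Thr-starved libraries stood furthest from the rest. The log2 fold change was 2.91 (SE 0.061, edgeR quasi-likelihood test with Benjamini-Hochberg adjustment, adjusted p = 9.7e-21) for Thr starvation and 0.92 (SE 0.068, adjusted p = 4.5e-10) for Cys starvation. Tested directly, Jun was 3.97-fold higher after Thr than after Cys starvation (95% interval of the log2 difference 1.87 to 2.10). The Jun gene overlaps Junos on the opposite strand, which shares 232 bases with a Jun transcript and was not analysed here. The library kit keeps strand, but whether the counting used it is not given in the sources used here, and without it the reads of both genes could not be told apart.

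Junb, a JUN protein with weaker activation on its own, was measured at 49.6, 48.99 and 51.0 CPM in unstarved libraries. Its levels were 39.8, 40.3 and 36.7 CPM after Cys starvation and 93.1, 97.3 and 100.04 CPM after Thr starvation. Cys-starved libraries were thus all below, and Thr-starved libraries all above, the unstarved range. The log2 fold changes were 0.96 (SE 0.037) for Thr and -0.35 (SE 0.039) for Cys starvation, with adjusted p of 4.3e-16 and 1.6e-07 by edgeR. Between the starved groups the log2 difference was 1.31 (95% interval 1.24 to 1.39, adjusted p = 3.4e-18, edgeR). Prdx2, a peroxiredoxin gene that overlaps Junb on the opposite strand, differed in the other direction after Thr starvation, with a log2 fold change of -0.20. After Cys starvation it fell as Junb did, with a log2 fold change of -0.08 (adjusted p = 0.016, edgeR). Prdx2 stood at 205 CPM in unstarved libraries, and whether the counting used strand is not given. The longest Junb transcript shared no stretch of at least 43 bases with another gene.

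Jund, the JUN gene known for steady expression in resting cells, had the smallest change of the JUN genes. It stood at 21.6, 20.5 and 23.9 CPM in unstarved libraries, at 24.0, 24.8 and 25.6 CPM after Cys starvation and at 34.0, 34.7 and 34.4 CPM after Thr starvation. The Thr-starved libraries were well apart from both other groups, whereas the lowest Cys-starved library lay just above the highest unstarved one. The log2 fold change was 0.65 (SE 0.050, adjusted p = 9.4e-11, edgeR) for Thr and 0.18 (SE 0.050, adjusted p = 0.0084) for Cys starvation. The second of these rested on unstarved library 2, without which it was 0.13 (adjusted p = 0.071, edgeR). The direct difference was 0.47 on the log2 scale (95% interval 0.37 to 0.57). Jund is overlapped on the opposite strand by Gm11175, which had no count in any library.

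Fos, the namesake FOS gene and a textbook immediate early gene, was measured at 1.52, 2.05 and 1.89 CPM in unstarved libraries. Cys-starved libraries gave 1.84, 1.75 and 1.48 CPM, within or just below this range, and Thr-starved libraries 4.47, 3.98 and 3.54 CPM, above all others. The level was therefore low in all groups, from 88 to 260 counts per library. For Thr starvation the log2 fold change was 1.13 (SE 0.14, adjusted p = 2.4e-07, edgeR). For Cys starvation it was -0.11, with a 95% interval from -0.42 to 0.21 that includes no change. Thr-starved cells had 2.35 times the Fos level of Cys-starved cells (adjusted p = 6.4e-08, edgeR).

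Fosl2, which encodes FRA-2, a FOS protein without the strong activation domain of FOS, moved in opposite directions in the 2 starvations. The unstarved libraries lay close together at 8.47, 8.52 and 8.36 CPM, the Cys-starved libraries at 12.2, 11.1 and 12.3 CPM, and the Thr-starved libraries at 7.86, 6.94 and 7.58 CPM. All 3 ranges were separate. For Cys starvation the log2 fold change was 0.49 (SE 0.069, adjusted p = 5.5e-06, edgeR), and the direct difference of Thr from Cys starvation was -0.67 (SE 0.070, adjusted p = 2.0e-08). The fall after Thr starvation was small, -0.18 on the log2 scale (SE 0.073, adjusted p = 0.039, edgeR). It lost its call by DESeq2 (adjusted p = 0.071), with GC and length offsets (-0.06, adjusted p = 0.47), with only the 2 groups compared (adjusted p = 0.057), and without any 1 of the 3 unstarved libraries or Thr-starved library 2 or 3, with adjusted p of 0.058 to 0.15 by edgeR.

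Fosb, whose full-length protein activates much as FOS does, and Fosl1, which encodes FRA-1, were near the limit of these libraries, at 24 to 61 and 20 to 42 counts. Fosb gave 0.761, 0.695 and 0.742 CPM in unstarved, 0.968, 0.866 and 0.771 CPM in Cys-starved and 0.490, 0.608 and 0.491 CPM in Thr-starved libraries. The 3 ranges did not overlap, yet only the direct comparison was called, with a log2 difference of -0.72 (95% interval -1.21 to -0.24, adjusted p = 0.010, edgeR), lost with GC and length offsets (adjusted p = 0.062). Against unstarved cells the log2 fold changes of Fosb were -0.48 (95% interval -0.98 to 0.02) for Thr and 0.25 (-0.22 to 0.71) for Cys starvation. Fosl1 ranged from 0.413 to 0.645 CPM in unstarved, 0.335 to 0.603 CPM in Cys-starved and 0.545 to 0.612 CPM in Thr-starved libraries, and the ranges overlapped throughout. A change of Fosl1 was not detectable at this depth: the 95% intervals ran from -0.44 to 0.77 for Thr and from -0.67 to 0.55 for Cys starvation. Fosl1 shares 1056 bases of transcript with Ccdc85b on the opposite strand, which had 391 to 827 counts and a log2 fold change of -0.58 after Thr starvation, so that without strand their reads could not be told apart.

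**Figure D2:**
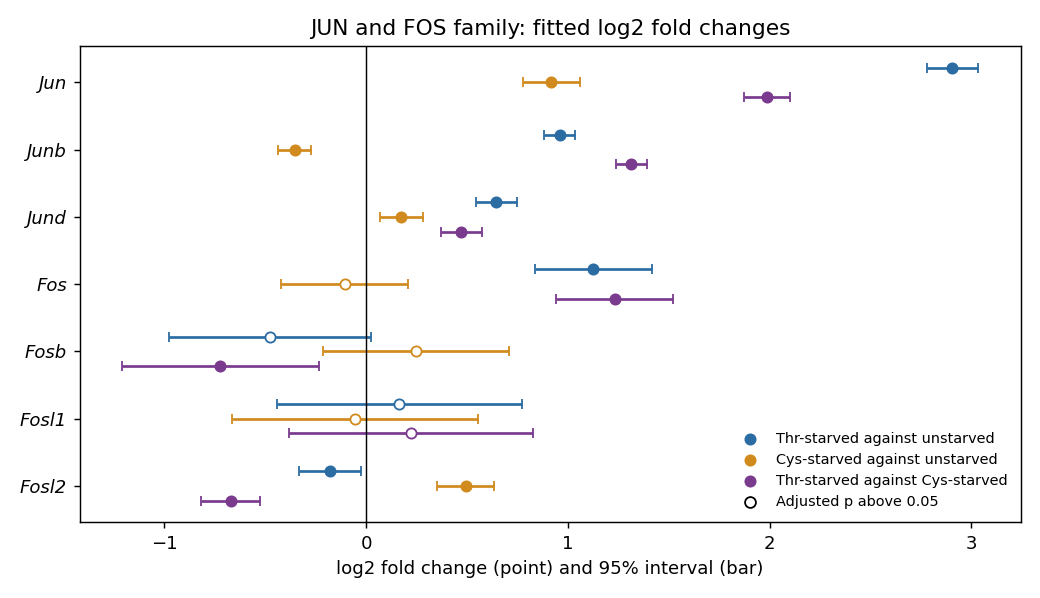
Fitted log2 fold changes (horizontal axis) of the 7 JUN and FOS genes in 3 comparisons, with 95% intervals as bars; open points had an adjusted p above 0.05. Jun lies at 2.91 after Thr and 0.92 after Cys starvation, Junb and Fosl2 lie on opposite sides of 0 in the 2 starvations, and the widest bars belong to Fosb and Fosl1.

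Levels were compared between genes per length, as FPKM, which here is TMM-normalized CPM divided by the length of the gene's annotated exons in kilobases. In unstarved cells the order was Junb with 21.7 ± 0.451 FPKM, Jund with 13.2 ± 1.05, Jun with 1.89 ± 0.208, Fosl2 with 0.873 ± 0.00818, Fos with 0.775 ± 0.116, Fosl1 with 0.253 ± 0.0586 and Fosb with 0.117 ± 0.00543 (SD, n = 3). Neighbours in this order were separate in every library except Fosl2 and Fos, whose ranges overlapped. The order was the same after Cys starvation, and no neighbours overlapped. After Thr starvation Fos, at 1.70 ± 0.197 FPKM, stood above Fosl2, at 0.771 ± 0.0485 (SD, n = 3), and the rest kept their places.

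The summed level of the 7 genes was 38.8 ± 1.46 FPKM in unstarved, 37.7 ± 0.708 in Cys-starved and 79.7 ± 1.19 in Thr-starved libraries (SD, n = 3). The total after Thr starvation was thus 2.06 times the unstarved total, and the unstarved and Cys-starved totals overlapped. JUN genes made up 94.8 ± 0.487% of the total in unstarved, 93.8 ± 0.340% in Cys-starved and 96.4 ± 0.340% in Thr-starved libraries (SD, n = 3). Within it, the share of Jun was 4.88% in unstarved, 9.46% in Cys-starved and 17.8% in Thr-starved cells. The share of Junb was 55.9%, 44.9% and 52.8%, and that of Jund 34.0%, 39.5% and 25.9%, in the same order of groups. Among the FOS genes, Fosl2 held 2.26%, 3.26% and 0.968% and Fos 2.00%, 1.90% and 2.14%. In exact two-sided permutation tests of 3 against 3 libraries, 25 of 30 differences in shares and totals reached p = 0.10, the smallest p this design allows, and after adjustment over the 30 tests the smallest was 0.12. No share or total therefore passed a threshold of 0.05, and none could.

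**Figure D3:**
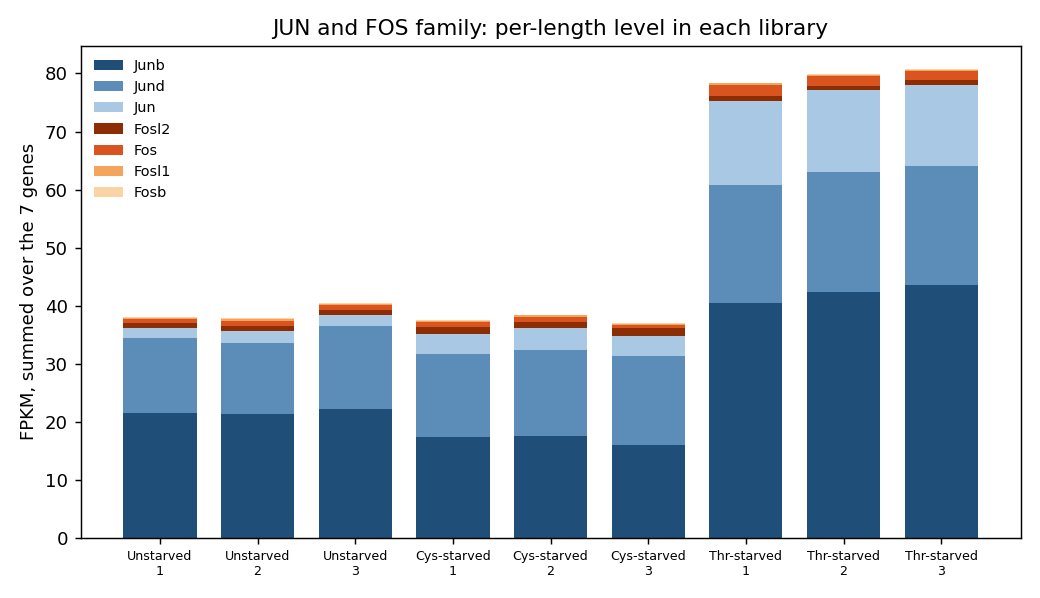
Per-length level (FPKM, vertical axis from 0) of the 7 JUN and FOS genes, stacked in each of the 9 libraries. The stacks reach 37.8 to 40.4 FPKM in unstarved, 37.0 to 38.4 in Cys-starved and 78.4 to 80.7 in Thr-starved libraries, with Junb as the largest block in each and Jun widest in the Thr-starved ones.

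Among other bZIP proteins that pair with JUN or FOS, 13 of 16 listed genes were tested. After Thr starvation 9 rose and 1, Mafa, fell, and after Cys starvation Atf3, Jdp2, Atf7, Nfe2l1 and Nfe2l2 rose and none fell by edgeR. The share called, 76.9% and 38.5%, stands beside 80.6% and 55% of those genes that averaged 5 CPM or more, and the list's medians were 0.57 and 0.21 on the log2 scale. No list member other than Atf3 and Jdp2 passed a log2 fold change of 1 after Cys starvation. The Mafa call was lost with GC and length offsets and without Thr-starved library 3. With the deposited size factors or GC and length offsets, 2 genes were called lower after Cys starvation. Mafa and Nfe2l1 were named after their values were seen.

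Atf3, a stress-induced repressor or activator that pairs with JUN proteins, gave 3.70, 3.84 and 3.54 CPM in unstarved, 23.4, 21.7 and 22.6 CPM in Cys-starved and 32.1, 29.3 and 30.9 CPM in Thr-starved libraries. Its log2 fold changes were 3.06 after Thr (SE 0.063) and 2.61 after Cys starvation (SE 0.064), with adjusted p of 7.3e-21 and 2.3e-18 by edgeR. Both starvations thus raised Atf3, with a direct difference of 0.45, whereas Jun differed by 1.99 between them. Jdp2, which encodes a JUN partner known to repress AP-1 sites, went the other way in rank, at 11.3, 11.8 and 13.3 CPM unstarved, 29.8, 30.7 and 31.8 CPM after Cys and 17.9, 18.2 and 17.7 CPM after Thr starvation. Jdp2 was thus highest after Cys starvation, by a log2 difference of -0.78 for Thr against Cys (SE 0.052, adjusted p = 1.1e-11, edgeR).

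Maff, a small MAF protein, rose after Thr starvation from 5.06 ± 0.465 to 10.7 ± 1.02 CPM (SD, n = 3), and Nfe2l2, the gene for the oxidative stress factor NRF2, from 68.7 ± 2.12 to 139 ± 4.40 CPM. After Cys starvation Maff stood at 5.42 CPM with a log2 fold change of 0.10 that did not pass the test, and Nfe2l2 rose by 0.21. Atf2, the CRE-binding partner of JUN, rose by 0.24 after Thr starvation, a call that was lost with GC and length offsets (0.02). Atf7 was called only after Cys starvation against unstarved cells (0.24, adjusted p = 0.0092, edgeR), not without Cys-starved library 3 or unstarved library 2, and its direct difference between starvations was not called (-0.12, adjusted p = 0.13). Batf3 lay at 0.702 to 0.935 CPM as group means and passed no test, and Batf and Batf2 were not analysed here.

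**Figure D4:**
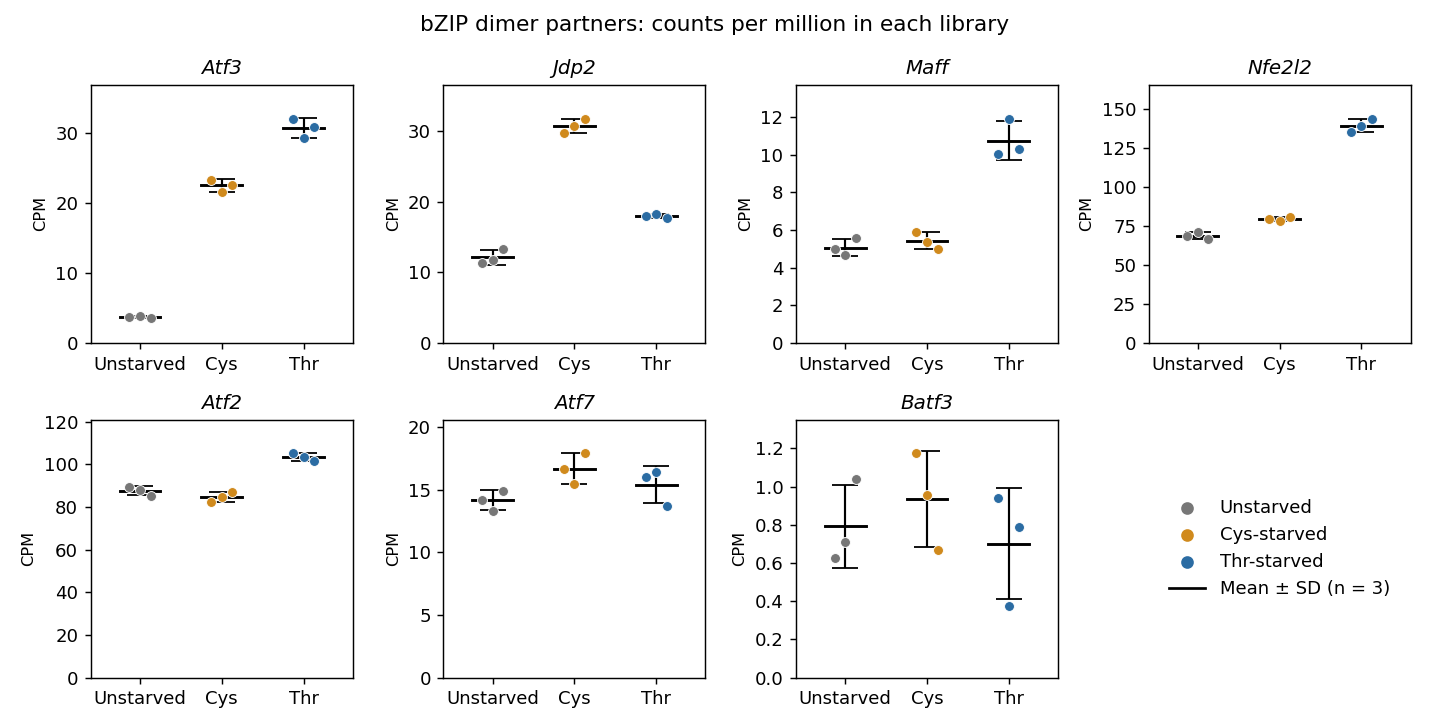
Counts-per-million values (CPM, vertical axes from 0, 1 panel per gene) of 7 bZIP partners in 3 unstarved, 3 Cys-starved and 3 Thr-starved libraries; points are libraries and lines are mean ± SD. Atf3 lies near 4 CPM unstarved and above 20 CPM in both starvations, Jdp2 is highest after Cys starvation, and Maff and Nfe2l2 are highest in the Thr-starved libraries.

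MAP kinases act upstream, phosphorylating JUN, FOS or the factors at their promoters. Of 28 tested genes of the cascade, 10 rose and 15 fell after Thr starvation, and 4 rose and 2 fell after Cys starvation, or 1 and 5 with the deposited size factors. The share called was 89.3% after Thr starvation, beside 63% of all genes and 80.6% of those that averaged 5 CPM or more, and 21.4% after Cys starvation, beside 36.3% and 55%. The 4 genes with the largest changes were all lower after Thr starvation. Map2k6, the p38 activator, was at 9.52 ± 0.624 CPM in unstarved and 4.79 ± 0.430 CPM in Thr-starved libraries (SD, n = 3), Mapk11, a p38 kinase, had a log2 fold change of -1.06, Map2k1, which activates ERK, of -0.82, and Mapk7, the gene for ERK5, of -0.79. After Cys starvation these 4 genes had log2 fold changes of 0.01 to 0.19, of which only that of Map2k6 was called (adjusted p = 0.049, edgeR), and 9 of 17 alternative fits lost it. The genes of the JNK enzymes, which phosphorylate JUN, had small changes: Mapk8 by -0.12 and Mapk9 by -0.13 after Thr and by 0.14 and 0.10 after Cys starvation. Each of these changes was called (adjusted p of 0.0034 to 0.042, edgeR). The direct differences of -0.26 for Mapk8 and -0.23 for Mapk9 were called too. Mapk10, also a JNK gene of the list, was not among the tested genes. The JNK genes were named after their values were seen. The median of the list was -0.13 after Thr starvation, and 0.02 with GC and length offsets.

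Of 14 tested transcription factors known to act at promoters of the family, 8 rose and 5 fell after Thr starvation (92.9% called, beside 63% of all genes and 80.6% of those that averaged 5 CPM or more). Stat3, which transmits the LIF signal, rose from 132 ± 6.04 to 345 ± 7.70 CPM (SD, n = 3) after Thr starvation, and stood at 134 ± 0.254 CPM after Cys starvation. Elk3, an SRF partner with repressor activity, fell from 17.8 ± 0.670 to 6.44 ± 0.649 CPM (SD, n = 3). Mef2a rose by 0.80 on the log2 scale after Thr starvation and by 0.26 after Cys starvation, and Mef2b by 0.53 and 1.58. Mef2b was thus the MEF2 gene with the larger rise after Cys starvation (direct log2 difference -1.05, SE 0.046, adjusted p = 5.7e-15, edgeR). After Cys starvation 4 factors rose and 2 fell (42.9% called, beside 36.3% and 55%), or 4 and 4 with the deposited size factors.

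AU-rich mRNA binding proteins govern how long such transcripts last. Of 8 tested, 5 rose and 2 fell after Thr starvation, and 2 rose and 4 fell after Cys starvation. The share called was 87.5% and 75%, beside 63% and 36.3% of all genes and 80.6% and 55% of those that averaged 5 CPM or more, over few genes. The decay factor Zfp36l2 fell in both, with log2 fold changes of -0.996 and -0.54, while its relative Zfp36l1 rose by 0.75 after Thr starvation and fell by 0.12 after Cys starvation. Zfp36, the gene for tristetraprolin, fell by 0.40 after Cys starvation and had a log2 fold change of -0.01 after Thr starvation. Tia1, a translational repressor found in stress granules, rose by 0.56 and 0.30. Among 4 genes of JUN protein turnover, Itch, a ubiquitin ligase for JUN, rose by 0.47 and Det1, an adaptor of the COP1 ligase, had a log2 fold change of -0.73 after Thr starvation. Cop1 rose by 0.22, a direction that turned with GC and length offsets (-0.08). The share of the 4 called was 75% after Thr and 25% after Cys starvation, beside 63% and 36.3% of all genes. Of the genes that averaged 5 CPM or more, 80.6% and 55% were called. After Cys starvation 1 of the 4, Fbxw7, a ubiquitin ligase subunit that binds JUN, was called, at -0.12. The call was lost with only the 2 groups compared and without Cys-starved library 1 or 3 or unstarved library 2 or 3.

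Of 25 genes known as AP-1 targets in other cells, 18 were tested, of which 5 rose and 8 fell after Thr starvation (72.2% called, median -0.22 on the log2 scale), and 4 rose and 5 fell after Cys starvation (50% called, median -0.07). Over all genes tested, 31.1% rose and 31.9% fell after Thr starvation and 17.5% and 18.8% after Cys starvation. Ccnd1, the gene for cyclin D1, fell from 117 ± 2.97 to 31.8 ± 1.79 CPM after Thr starvation and to 102 ± 1.43 CPM after Cys starvation (SD, n = 3). Plaur, the urokinase receptor, fell from 19.6 ± 0.657 to 4.99 ± 0.184 CPM after Thr starvation and to 14.6 ± 0.304 CPM after Cys starvation. Lif rose from 3.55 ± 0.447 to 11.02 ± 1.01 CPM after Thr starvation and had a log2 fold change of -0.03 after Cys starvation. Hmox1, heme oxygenase 1, which NRF2 is also known to induce, rose in both, by 0.84 after Thr and 1.03 after Cys starvation. Both starvations were read against the same unstarved libraries.

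**Figure D5:**
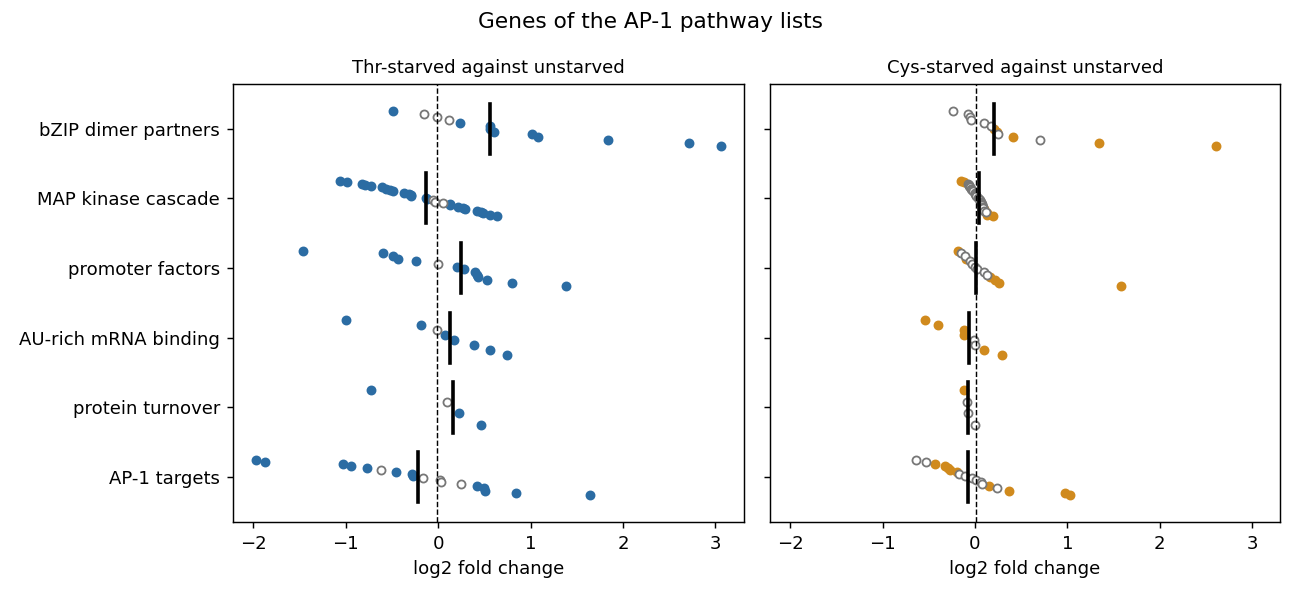
Log2 fold changes (horizontal axes) of the genes of 6 lists after Thr starvation (left) and Cys starvation (right); filled points were called, open points were not, black bars are list medians and the dashed line is the median of all genes tested. The bZIP partners have the highest list median in both panels, at 0.57 and 0.21, and the AP-1 targets reach from -1.97 to 1.64 after Thr starvation.

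The genes whose log2 CPM followed a member most closely over the 9 libraries were found among 11410 genes, with Pearson's r as a description. For Jun they were Eaf1, Zfp110 and Atf6 (r = 0.998 to 0.999), for Junb Lin28a, Tmem222 and Fxr1 (r = 0.999), and for Jund Slu7, Prkab2 and Gpatch2 (r = 0.991 to 0.994). Fos was followed by Mdm4-ps, Mtmr2 and H1fx (r = 0.988 to 0.991), and Fosl2 by Uhrf1bp1, Poldip2 and Ccdc166 (r = 0.990 to 0.992). The sizes differed from those of the members: Eaf1 rose by 0.77 on the log2 scale after Thr starvation, beside 2.91 for Jun. Mdm4-ps is named as a pseudogene, whose reads can be shared with its parent gene. The 9 points fall into 3 groups, so r mainly reflects the 3 group means, and none of the 15 genes remained when Spearman's rho was used.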

How the data were processed

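The 9 libraries were poly(A) mRNA libraries from a directional kit, sequenced as paired reads of 43 bases. Per the methods and the submitters' processing notes, the authors mapped reads to GRCm38 with STAR 2.7.4a, used HTSeq to count them per Ensembl gene, and deposited these raw counts. They also deposited a signal table, in which each column is the counts divided by 1 DESeq2 size factor. It gave the size factors of an alternative. Counts were tested with edgeR 4.0.16 in R 4.3.3 (TMM, quasi-likelihood F test, genes with at least 1 count over the 9 libraries), with all 9 libraries in 1 fit, group as the only term, and Benjamini-Hochberg adjustment over 20143 genes per comparison. A call is an adjusted p of 0.05 or less. SE is the log2 fold change over the root of F. The script was tested on simulated data.

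Symbols and lengths came from GENCODE M21, which held 20171 of the 20189 identifiers. Shares were compared with exact permutation tests in scipy 1.17.1. Shared transcript stretches of at least 43 bases were searched with BLAST 2.17.0. The members and lists were chosen with earlier results of these data known. Named were all members, dimer partners with AP-1 roles, up to 4 genes per list with a mean of at least 5 CPM, a call in any comparison and the largest absolute log2 fold change in any, and the 3 genes most correlated with each member with a mean of at least 1 CPM (Pearson, log2 of CPM plus 0.5). Replicate pairs differed by a mean chi-square of 1.98 to 2.13 per gene in all 9 pairs, so no pair stood out from the others. As a count cannot be taken as 1 independent molecule, this value cannot tell repeats of 1 library from separate cultures. Alternatives were RLE scaling, the deposited size factors, DESeq2 1.42.0, edgeR's filterByExpr, at least 10 counts per library, only the 2 groups compared, a replicate block, stricter thresholds, GC and length offsets, and leaving out each library. Libraries starved of arginine or leucine and GCN2-deficient cells were not analysed here, and 1 gene of the turnover list is not reported here.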

Additional observations from a re-analysis of the deposited data

Results flagged for a closer look

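The direct test of Thr-starved against Cys-starved libraries (edgeR's quasi-likelihood test, adjusted p of 0.05 or less) marks genes that differed between these groups. It called 62% of all genes and 80.6% of those that averaged 5 CPM or more. Most list genes below were named for a large change in any comparison, this one included. The size of their differences was thus partly fixed by that choice. Values are log2 differences, positive where Thr-starved libraries were higher.

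Of the JUN and FOS genes, Jun differed by 1.99, Junb by 1.31, Fos by 1.23 and Jund by 0.47, and Fosb by -0.72 and Fosl2 by -0.67. Fosl1 was the exception, at 0.22. Junb and Fosl2 were called in opposite directions against unstarved cells, Junb higher after Thr and lower after Cys starvation and Fosl2 the reverse, although the Fosl2 call after Thr starvation was lost in 8 of 17 alternative fits.

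Of the bZIP partners, the differences were 0.45 for Atf3, 0.98 for Maff, 0.81 for Nfe2l2, 0.29 for Atf2 and -0.78 for Jdp2. Among the kinases they were -1.18 for Map2k6, -1.07 for Mapk11, -0.89 for Map2k1 and -0.85 for Mapk7. Among the promoter factors Stat3 differed by 1.36 and Mef2a by 0.55, and Elk3 by -1.32 and Mef2b by -1.05.

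The mRNA binding genes differed by 0.87 for Zfp36l1, 0.39 for Zfp36, 0.27 for Tia1 and -0.46 for Zfp36l2. The turnover genes differed by 0.46 for Itch, 0.29 for Cop1, 0.21 for Fbxw7 and -0.65 for Det1. Of the AP-1 targets, Lif differed by 1.67, Hmox1 by -0.19, Plaur by -1.54 and Ccnd1 by -1.68.

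The genes that followed a member over the 9 libraries were chosen on these same libraries, so a difference in the member's direction was fixed by the choice, and their values are a description. These were Eaf1 (0.53), Zfp110 (0.68) and Atf6 (0.70) for Jun, Lin28a (0.81), Tmem222 (1.02) and Fxr1 (0.23) for Junb, and Slu7 (0.47), Prkab2 (0.58) and Gpatch2 (0.52) for Jund. For Fos they were Mdm4-ps (1.28), Mtmr2 (0.28) and H1fx (0.57), and for Fosl2 Uhrf1bp1 (-0.49), Poldip2 (-0.21) and Ccdc166 (-0.92).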

How the results depend on the processing

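With 3 libraries per group and counts under 65 for Fosb and Fosl1, changes below the intervals given for these genes could not be resolved. Another scaling shifted the median log2 fold change of all genes by at most 0.04, but with the deposited size factors 36.8% of the calls after Cys starvation were higher, beside 48.2% in the reported fit.

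The calls of Jun, Junb and Fos, where made, held in all 17 alternative fits of each comparison, and so did those of Jund apart from Cys starvation (0.13 to 0.24 when leaving out 1 library). The Fosl2 change after Thr starvation was no longer called at -0.17 by DESeq2, -0.17 with only the 2 groups compared, -0.064 with GC and length offsets, or in 5 of the 9 fits without 1 library, which ranged from -0.21, where the call was kept, to -0.13. Fosl1 after Cys starvation, not called in any fit, changed sign between fits without 1 library (-0.23 to 0.15). Fosb between the starved groups was not called with GC and length offsets (-0.52). The causes were not tested.

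At an adjusted p of 0.01, Fosl2 after Thr starvation (-0.18) and Fosb between the starved groups (-0.72) lost their calls. A separate threshold was an adjusted p of 0.05 or less with a log2 fold change of 1 or more in size. It dropped these 2 calls and those of Junb (0.96) and Jund (0.65) after Thr starvation. It also dropped Jun (0.92), Junb (-0.35), Jund (0.18) and Fosl2 (0.49) after Cys starvation, and Jund (0.47) and Fosl2 (-0.67) between the starved groups. That left 2, 0 and 3 members, 2668, 296 and 2303 of all genes, and 12, 4 and 11 list genes in the 3 comparisons (Thr, Cys, direct), by construction of the threshold. Beside the 0 for Cys starvation by edgeR, 4 members had an unadjusted p under 0.05 and DESeq2 called 4 with no fold threshold.

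The JUN share of the family total was 94.2% in unstarved and 92.8% in Cys-starved cells with the length of the longest transcript, and 87.1%, 83.4% and 93.3% in unstarved, Cys-starved and Thr-starved cells with no length correction. Of the 15 genes that followed a member, 0 were found again with Spearman's rho.

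Replicate numbers did not pair the libraries, as the correlations of same-numbered deviations lay between -0.233 and 0.101. With a replicate block, 5, 4 and 6 members and 12488, 7063 and 12334 of all genes were called in the 3 comparisons, and no member's call changed. In all, 935 of 1035 alternative values kept their direction and call or stayed within the limit set for a count or share.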
